A study of Homo sapiens with 15 samples.

Results

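M228 is a V5-tagged mutant form of the transcription factor SOX9, and the transcriptome of cells induced for it was compared with that under GFP, the control protein. Both were induced in HT115, an established human colorectal cancer cell line, with 0.5 µg/ml doxycycline for 24 h, so M228 and GFP cells alike carried an inducible construct and received the drug. The comparison uses 6 of the 15 libraries of the series, 3 of M228 and 3 of GFP, taken by their sample labels. The other 9 libraries hold the SOX9 mutants M303 and M379 and wild-type SOX9 (SOX9_WT), each V5-tagged, induced in the same way and in 3 libraries. The series text calls M303 truncated, while no source used here explains the names M228 and M379. By the series text there were 6 experiments in duplicate, and by the labels 5 groups in triplicate. The labels leave unsaid whether the induced cells were pools or clones and whether libraries of 1 group stem from different cultures. The p-values therefore rest on spread between libraries, part or all of which may be technical. Of 60671 genes in the count table, 16160 passed an expression filter and were tested.

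SOX9 is a transcription factor with an HMG box, a domain that binds and bends DNA at short motifs of the ACAAT kind. It is the master regulator of cartilage, where it switches on collagen and proteoglycan genes. In the intestine it marks the crypt base and is needed for Paneth cells, and it acts downstream of WNT signalling. The comparison asks which genes differ in level between colorectal cancer cells induced for this mutant and those induced for GFP. Whether the mutant protein itself causes a difference was not tested.

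Library totals were 15105058, 7291596 and 18180807 reads in M228 and 3054755, 12657176 and 16699998 reads in GFP. Levels are given below as CPM, each gene's share of its library's reads after TMM scaling between libraries. A gene with no read could still be present at up to 0.169 to 0.424 CPM in an M228 library and 0.184 to 0.912 CPM in a GFP library, the level of 3 reads, and these limits cover counting error only. The GFP libraries varied more among themselves than those of the other groups, with a median dispersion between libraries of 0.0989 in GFP, against 0.0101 to 0.0250 elsewhere. The main fit below takes 1 dispersion per gene over all 15 libraries. Its standard errors and p-values against GFP thus draw largely on the other groups and may understate the spread of GFP. Ribosomal protein genes, 30 in number, took 3.84% of the reads of GFP replicate 2 and 1.97% to 2.65% elsewhere. All 10 colorectal epithelium markers were expressed in the 6 libraries, among them EPCAM at 868 to 1117 CPM in M228 and 905 to 1107 CPM in GFP. Summed fibroblast markers stood at 4.52 to 5.51 CPM in M228 and 2.13 to 3.66 CPM in GFP, with PDGFRA at 0. Summed endothelial markers stood at 0.282 to 0.706 CPM in M228 and 0.0852 to 0.489 CPM in GFP, with CDH5 and KDR at 0. Among immune markers PTPRC and CD3E were at 0, and the summed level, 637 to 1014 CPM in M228 and 1404 to 2431 CPM in GFP, was nearly all LYZ, which epithelium also makes.

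The promoters of 3 genes whose levels are described below are shown because the induced protein is a DNA-binding factor: TMEM200A and ELFN2, which were higher in M228, and ADRA2A, which was lower. Each run is the 250 bases before the gene's start, 5′ to 3′ on the gene's strand, from RefSeq (GRCh38.p14). They lie at chr6:130365767-130366016 on the plus strand, chr22:37427480-37427729 on the minus strand and chr10:111076779-111077028 on the plus strand. Capitals mark a match to the SOX motifs ACAAT or ACAAAG, searched on both strands.
TMEM200A: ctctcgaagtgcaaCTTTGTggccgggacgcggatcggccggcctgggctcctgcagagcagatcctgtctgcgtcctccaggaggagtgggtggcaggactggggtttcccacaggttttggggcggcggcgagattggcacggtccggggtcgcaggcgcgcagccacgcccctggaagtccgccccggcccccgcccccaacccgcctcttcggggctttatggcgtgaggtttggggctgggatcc
ELFN2: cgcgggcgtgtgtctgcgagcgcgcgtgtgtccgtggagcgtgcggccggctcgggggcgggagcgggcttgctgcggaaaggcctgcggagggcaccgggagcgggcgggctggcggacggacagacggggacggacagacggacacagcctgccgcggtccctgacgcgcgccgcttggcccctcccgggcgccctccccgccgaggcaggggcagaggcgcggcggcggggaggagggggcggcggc
ADRA2A: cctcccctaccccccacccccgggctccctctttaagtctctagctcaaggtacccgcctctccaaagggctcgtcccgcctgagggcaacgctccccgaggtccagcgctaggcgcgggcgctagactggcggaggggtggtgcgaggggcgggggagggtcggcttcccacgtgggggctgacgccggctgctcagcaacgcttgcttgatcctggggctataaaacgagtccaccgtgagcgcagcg
TMEM200A holds 1 match, to ACAAAG on the opposite strand, 236 bases before its start, and the windows of ELFN2 and ADRA2A hold none. Over all 35116 RefSeq promoter windows of this length, 33.7% held either motif, 24.6% ACAAT and 13.7% ACAAAG. Of 44 windows of the genes called between M228 and GFP, which cover 30 of the 38 genes other than SOX9, 11 windows (25%) held either motif. A match is a run of letters and not a site of binding, and short windows with no match say nothing of SOX9.

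SOX9 itself was measured before all else, as a check of the labels. SOX9 (ENSG00000125398, chromosome 17, 72121020 to 72126416, plus strand of GRCh38) had 1899.9, 2032 and 2383 CPM in M228, against 97.6, 100.8 and 158 CPM in GFP. Every M228 library lay far above every GFP library, with a log2 fold change of 4.14 ± 0.20 (edgeR adjusted p = 1.77e-08), or 17.6-fold. The gene counts do not tell the induced transcript from the cell's own SOX9. In M303 and M379 the gene had 2949, 3037 and 3039 CPM and 2034, 2329 and 2282 CPM, so M228 and M379 stood close to each other and below M303, a difference that was not called between M228 and M303. SOX9_WT had 243, 210.2 and 186 CPM, far below the 3 mutants. The SOX9 read level of M228 was thus 3.30 ± 0.19 above SOX9_WT on the log2 scale (edgeR adjusted p = 2.69e-07).

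Few genes were called between M228 and GFP cells, and most of those were higher in M228. How many genes differed cannot be read from this count, which changed with the fit and with single libraries. Besides SOX9, 32 genes were higher in M228 and 6 were lower. The matrix genes COL6A6, LAMA4 and VCAN were among those with the larger folds. The lower genes include GPX2, the glutathione peroxidase of the gut epithelium. The test was edgeR's quasi-likelihood test over all 15 libraries, two-sided, with Benjamini-Hochberg adjustment, and a call is an adjusted p under 0.05. It called 39 of 16160 genes (0.241%), 33 higher in M228 (0.204%) and 6 lower (0.0371%), while 1515 genes (9.38%) had an unadjusted p under 0.05. In all 38 called genes other than SOX9 the M228 and GFP libraries did not overlap. Over all genes tested the 3 M228 libraries lay above the 3 GFP libraries in 5.32% and below them in 4.22%. With the replicate number as a block in the fit, 181 genes were called (1.12%), 126 higher and 55 lower, and they included all 39.

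The number of calls depended on single libraries. It was 23 without M228 replicate 1, 15 without M228 replicate 2 and 143 without GFP replicate 3, and a fit of the M228 and GFP libraries alone called 3 genes, SOX9, LAMA4 and ELFN2. Of the 39 genes, 14 were called in all 6 fits that each left out 1 library, among them SOX9, ADRA2A, COL6A6, EHD2, ELFN2, GPX2, HS3ST3A1, LAMA4, NTN4, PKIB, PRSS23, TLR4 and VCAN. No called gene turned its sign in these fits.

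**Figure D1:**
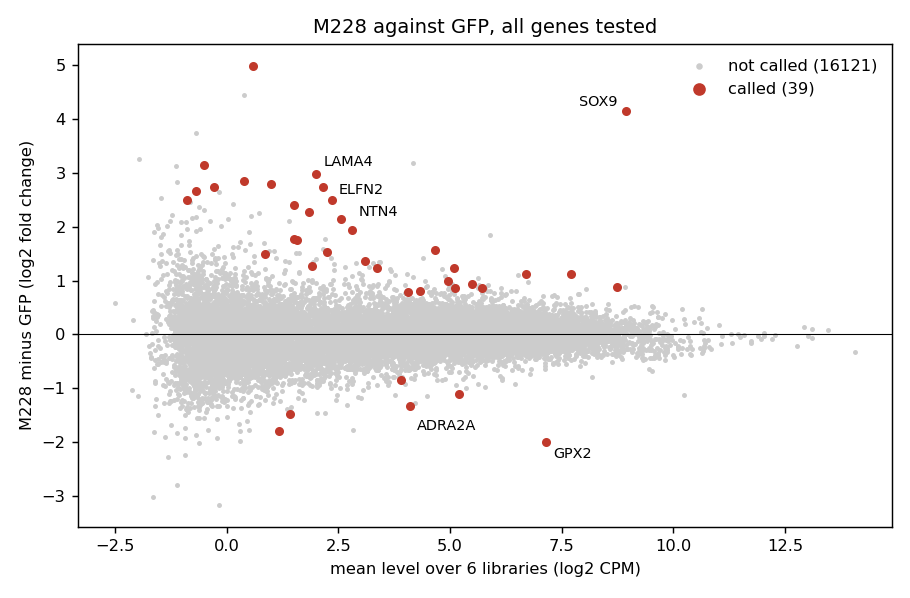
Log2 fold change (M228 minus GFP, vertical axis) against mean level over the 6 libraries (log2 CPM, horizontal axis) for the 16160 genes tested. Red points are the 39 genes called by edgeR at an adjusted p under 0.05, of which 33 lie above 0 and 6 below, and grey points are genes not called.

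Genes of the extracellular matrix and its receptors were among those that rose. The grouping by role here and below was made after the values were seen. LAMA4 (ENSG00000112769, chromosome 6, 112107931 to 112254939, minus strand), a laminin chain of basement membranes, had 11.98, 11.6 and 7.85 CPM in M228, against 2.13, 1.19 and 1.16 CPM in GFP. The lowest M228 library was above the highest GFP library by several fold, and the log2 fold change was 2.97 ± 0.42 (edgeR adjusted p = 0.00529). VCAN (ENSG00000038427, chromosome 5, 83471618 to 83582303, plus strand), the large proteoglycan versican, had 16.9, 12.1 and 6.89 CPM in M228, against 1.82, 0.937 and 2.51 CPM in GFP. Its M228 libraries differed among themselves by more than 2-fold and still lay apart from GFP, at 2.73 ± 0.42 (edgeR adjusted p = 0.01), or 3.34 without GFP replicate 3. NTN4 (ENSG00000074527, chromosome 12, 95657807 to 95791189, minus strand), a netrin that binds laminins in basement membranes, had 12.2, 15.5 and 16.3 CPM in M228, against 2.43, 2.47 and 5.69 CPM in GFP. GFP replicate 3 was the highest of its group, and without it the fold change of NTN4 was the largest of the 6 fits that left out 1 library, at 2.57, beside 1.94 ± 0.29 over all libraries (edgeR adjusted p = 0.00746). Summed fibroblast markers were higher in M228 too, as given above, with DCN and LUM at or under 0.565 CPM in all 6 libraries, and their part in these levels was not tested. In bulk RNA a higher level per cell and more cells with the transcript cannot be told apart.

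ITGA9, the integrin alpha 9 chain, which binds matrix ligands such as tenascin C, had 19.03, 14.8 and 12.99 CPM in M228, against 8.82, 6.64 and 5.38 CPM in GFP. The groups lay close but did not overlap, at 1.24 ± 0.24 (edgeR adjusted p = 0.0411), and the call was kept in only 1 of 6 fits that left out 1 library, the one without GFP replicate 1 (adjusted p = 0.036 in edgeR). COL6A6, a collagen VI chain, had 45, 8 and 31 reads in M228, against 0, 3 and 4 reads in GFP. These are few reads, and the pooled ratio of M228 to GFP was 9.32, with an exact 95% counting interval of 4.33 to 23.9 (edgeR adjusted p = 0.01). This interval and that of TBX2 below pool the reads of each group and leave out the spread between libraries. They cover counting error only and are too narrow for the difference between groups. Both reads of a pair could be counted, and where they were, the intervals also treat reads of 1 fragment as independent. HS3ST3A1, which adds sulfate to heparan sulfate chains, had 3.65, 6.07 and 5.14 CPM in M228, against 0.608, 0.767 and 0.673 CPM in GFP (2.79 ± 0.38, edgeR adjusted p = 0.00507). Its value in GFP replicate 1 lay under 0.912 CPM, the level of 3 reads in that library.

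Secreted proteases, their inhibitors and other secreted proteins rose as well. PRSS23, a secreted serine protease, had 156, 169.7 and 138 CPM in M228, against 64.5, 77.2 and 71.4 CPM in GFP. The spread within each group was small beside the gap between them, at 1.11 ± 0.15 (edgeR adjusted p = 0.00482). SPINK5, an inhibitor of kallikrein proteases known from the skin, had 6.73, 9.74 and 9.44 CPM in M228, against 1.52, 2.64 and 3.85 CPM in GFP (1.53 ± 0.26, edgeR adjusted p = 0.0202). Its call was lost without M228 replicate 2 (edgeR adjusted p = 0.109), M228 replicate 3 or GFP replicate 2. SERPINE2, an inhibitor of thrombin and plasminogen activators, had 45.6, 54.9 and 40.2 CPM in M228, against 23.7, 29.6 and 23.1 CPM in GFP (0.87 ± 0.15, edgeR adjusted p = 0.0241). Its call was lost without M228 replicate 1, M228 replicate 2 (edgeR adjusted p = 0.147) or GFP replicate 1. TNFRSF11B, which encodes osteoprotegerin, the decoy receptor of RANKL, had 7.43, 15.8 and 13.6 CPM in M228, against 3.95, 2.04 and 2.81 CPM in GFP (2.15 ± 0.34, edgeR adjusted p = 0.0127). This call was lost without M228 replicate 2 (edgeR adjusted p = 0.0692), M228 replicate 3 or GFP replicate 2.

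IL18, a cytokine that epithelial cells make as a precursor, had 42.3, 51.97 and 37.97 CPM in M228, against 18.9, 23.1 and 23.4 CPM in GFP. The difference was close to 2-fold, at 0.99 ± 0.16 (edgeR adjusted p = 0.0127), and the call was lost without M228 replicate 2 (edgeR adjusted p = 0.0901). PCSK6, a proprotein convertase that cuts growth factor precursors, had 64.8, 66.7 and 57.5 CPM in M228, against 36.5, 22.7 and 39.6 CPM in GFP (0.94 ± 0.18, edgeR adjusted p = 0.0402). Of 6 fits that left out 1 library, 2 kept this call, those without GFP replicate 2 and GFP replicate 3, and it was furthest from the threshold without M228 replicate 2 (edgeR adjusted p = 0.158).

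Membrane and signalling genes made up another part of the genes that rose. ELFN2 (ENSG00000166897, chromosome 22, 37367960 to 37427479, minus strand), a leucine-rich repeat transmembrane protein, had 12.6, 12.1 and 10.96 CPM in M228, against 2.13, 1.96 and 2.20 CPM in GFP. Its libraries were even within both groups, and after SOX9 it had the lowest adjusted p of the 39, at 2.50 ± 0.27 (edgeR adjusted p = 0.000703). TLR4 (ENSG00000136869, chromosome 9, 117704175 to 117724735, plus strand), the receptor for bacterial lipopolysaccharide, had 45.6, 47.2 and 42.8 CPM in M228, against 15.2, 8.86 and 21.1 CPM in GFP. Each M228 library held about as much as the others, while GFP libraries spread over more than 2-fold, and the difference was 1.57 ± 0.23 (edgeR adjusted p = 0.00654). PKIB, an inhibitor of cAMP-dependent protein kinase, had 48.9, 62.00 and 46.4 CPM in M228, against 24.3, 23.1 and 19.6 CPM in GFP (1.24 ± 0.15, edgeR adjusted p = 0.00299). EHD2, an ATPase that stabilises caveolae, had 11.4, 14.7 and 15.9 CPM in M228, against 3.65, 5.79 and 6.12 CPM in GFP (1.35 ± 0.19, edgeR adjusted p = 0.00507).

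TMEM200A, a transmembrane protein with little known function, had 4.74, 7.77 and 5.93 CPM in M228, against 1.82, 0.681 and 1.28 CPM in GFP (2.41 ± 0.41, edgeR adjusted p = 0.0212). Its call was lost without M228 replicate 2 (edgeR adjusted p = 0.109), M228 replicate 3 or GFP replicate 2. MAL2, a protein of apical transport, had 549.7, 685 and 537 CPM in M228, against 333, 232 and 393 CPM in GFP (0.89 ± 0.17, edgeR adjusted p = 0.0404), and 2 of 6 fits that left out 1 library kept it, those without GFP replicate 2 and GFP replicate 3. It reached an adjusted p of 0.203 by edgeR without M228 replicate 2. CDHR2 (ENSG00000074276, chromosome 5, 176542511 to 176595974, plus strand), a cadherin that links the microvilli of the brush border, had 5.19, 6.21 and 5.08 CPM in M228, against 3.35, 1.96 and 2.08 CPM in GFP. The groups did not overlap, but the call (1.27 ± 0.24, edgeR adjusted p = 0.0404) was kept only without GFP replicate 1 among the 6 fits, and was furthest from the threshold without M228 replicate 2 (edgeR adjusted p = 0.147).

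MAOB (ENSG00000069535, chromosome X, 43766610 to 43882450, minus strand), a monoamine oxidase of the outer mitochondrial membrane, had 7.37, 11.6 and 9.94 CPM in M228, against 0.304, 2.21 and 2.39 CPM in GFP (2.27 ± 0.35, edgeR adjusted p = 0.01). The MAOB call was lost without M228 replicate 2 (edgeR adjusted p = 0.055). Its value in GFP replicate 1 lay under 0.912 CPM, the level of 3 reads in that library.

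SLC6A20, a proline transporter of the gut and kidney epithelium, had 268, 307 and 372 CPM in M228, against 125, 117 and 191 CPM in GFP. It was among the most highly expressed of the genes that rose (1.12 ± 0.19, edgeR adjusted p = 0.0155), and the call was lost without M228 replicate 2, M228 replicate 3 (edgeR adjusted p = 0.0702) or GFP replicate 1. ARSJ, a member of the arylsulfatase family, had 5.13, 4.38 and 5.99 CPM in M228, against 1.52, 0.852 and 2.08 CPM in GFP (1.78 ± 0.29, edgeR adjusted p = 0.0127). It lost its call without M228 replicate 3 (edgeR adjusted p = 0.0589).

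A further 9 genes were called higher, and like several genes above they lost their calls in some fits. They are MCOLN3, a cation channel of endosomes, CNN3, a calponin that binds actin, KIFAP3, a kinesin adaptor, RASGRP3, an activator of Ras, ARHGEF37, a guanine nucleotide exchange factor family member, TBX2, a T-box transcription factor, KLRC2, a receptor known from natural killer cells, NT5DC4 and the unnamed gene ENSG00000236283. Each lost its call in 2 to 6 of the 6 fits that left out 1 library, TBX2 in 2 of them (M228 replicate 2 and GFP replicate 2, edgeR adjusted p = 0.0696) and KLRC2 and NT5DC4 in all 6. TBX2 had 19, 13 and 24 reads in M228, against 0, 2 and 5 in GFP, a pooled ratio of 6.21 (exact 95% counting interval 2.83 to 16.2), and its fitted log2 fold change was 2.66 ± 0.44 over all libraries and 3.36 without GFP replicate 3. KLRC2 shares 25% of its exon bases with genes on its own strand, among them its paralog KLRC1, so its value is uncertain. These genes, COL6A6 and the other called genes below the 14 highest folds fall outside the naming rule, so the choice to describe them followed their values.

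The 6 genes that fell include a peroxidase, a receptor and a growth factor binding protein. GPX2 (ENSG00000176153, chromosome 14, 64939152 to 64942905, minus strand) had 61.1, 79.4 and 84.1 CPM in M228, against 181, 483 and 228.2 CPM in GFP. GFP replicate 2 held more than 2 times the level of either other GFP library, and the log2 fold change was -1.996 ± 0.28 (edgeR adjusted p = 0.00592), or -1.46 without that library. ADRA2A (ENSG00000150594, chromosome 10, 111077029 to 111080907, plus strand), the alpha-2A adrenergic receptor, had 12.7, 9.60 and 10.7 CPM in M228, against 20.1, 32.2 and 29.7 CPM in GFP (-1.33 ± 0.17, edgeR adjusted p = 0.00375). M228 libraries were even, and GFP replicate 1 was the lowest of its group. IGFBP4, a binding protein of insulin-like growth factors, had 26.01, 21.04 and 29.3 CPM in M228, against 48.96, 71.7 and 44.6 CPM in GFP (-1.11 ± 0.18, edgeR adjusted p = 0.0156), and its call was lost without M228 replicate 1 or M228 replicate 2 (edgeR adjusted p = 0.141).

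RUNX3, a runt-domain transcription factor known as a tumour suppressor in the stomach and gut, had 1.22, 0.989 and 2.43 CPM in M228, against 3.95, 4.69 and 4.71 CPM in GFP. The difference was -1.47 ± 0.28 (edgeR adjusted p = 0.0404) and rested on few reads, with 13, 55 and 77 in GFP. SHF, an adaptor protein with an SH2 domain, had 0.769, 1.13 and 1.53 CPM in M228, against 4.87, 5.03 and 2.63 CPM in GFP (-1.79 ± 0.33, edgeR adjusted p = 0.0373). RILPL2, a regulator of membrane transport at the primary cilium, had 11.1, 10.7 and 11.1 CPM in M228, against 22.8, 21.5 and 15.97 CPM in GFP (-0.85 ± 0.15, edgeR adjusted p = 0.0242). RUNX3 kept its call only without M228 replicate 3, RILPL2 only without GFP replicate 3, and SHF without M228 replicate 3 or GFP replicate 3. Their adjusted p in the least favourable of these edgeR fits was 0.18 for RUNX3 (without M228 replicate 1), 0.141 for RILPL2 (without M228 replicate 2) and 0.18 for SHF (without M228 replicate 1).

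**Figure D2:**
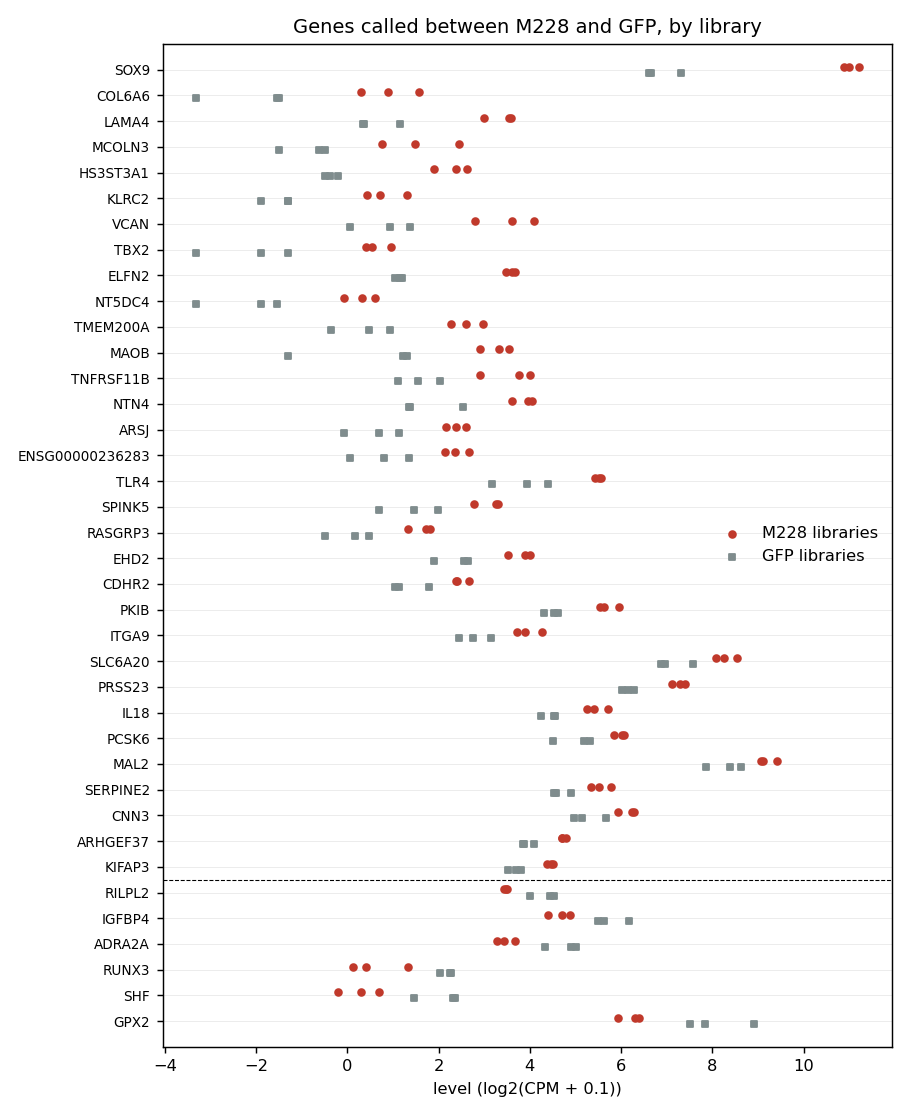
Levels of 38 called genes, SOX9 among them, in each library (log2(CPM + 0.1), horizontal axis), with M228 as red circles and GFP as grey squares, ordered by fold change. The 32 genes above the dashed line were higher in M228 and the 6 below it were lower, and in none of them do the libraries of the groups overlap.

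Pathway genes were counted on 25 lists. In 22 of them edgeR called no member, beside 0.241% called of all genes tested. These 22 lists hold 346 distinct genes that were tested. Of these, 54 had an unadjusted p under 0.05, beside 9.38% of all genes tested. With the replicate block 6 were called, beside 1.12% of all genes tested. DESeq2 called 3 and limma's voom with quality weights called 1. The counts of both methods over all genes tested are given in the closing section on processing. Beside those, the member counts are not read as a result about the lists. The median log2 fold change of all genes tested was -0.0012, against which the medians below are set. With that median so near 0, positive and negative fold changes were about equally common over all genes tested. The lists with a called member are the SOX family, with SOX9 itself, the enterocyte list, with CDHR2, and the matrix list, with NTN4.

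No cartilage gene passed the test. The cartilage list had 5 of 16 members tested, none called, with a median of -0.45. COL9A3, a collagen IX chain and a cartilage target of SOX9, had 3.14, 3.11 and 3.50 CPM in M228, against 1.52, 3.07 and 1.96 CPM in GFP (0.50 ± 0.39, edgeR adjusted p = 0.713). SNORC, a cartilage proteoglycan gene, had 6.34, 4.80 and 3.95 CPM in M228, against 7.30, 10.1 and 6.00 CPM in GFP (-0.63 ± 0.29, edgeR adjusted p = 0.526), and COL9A2 had -0.45 ± 0.32. Neither DESeq2 nor voom called a member of this list, and 1 of the 5 had an unadjusted p under 0.05, beside 9.38% of all genes tested. Of the other SOX genes, 6 were tested and none was called, SOX4 being at 0.49 ± 0.25 and SOX8 at -0.47 ± 0.32.

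Crypt stem cell genes had 17 of 20 members tested and a median of -0.049, with 6 positive and 11 not. All M228 libraries lay below all GFP libraries in 4 of the 17, beside 4.22% of all genes tested, and above them in 2, beside 5.32%. An unadjusted edgeR p under 0.05 was reached by 6 of the 17, beside 9.38% of all genes tested, and none was called. LGR5, the receptor that marks crypt base stem cells, had 46.00, 38.4 and 46.4 CPM in M228, against 53.8, 24.4 and 72.1 CPM in GFP, and the difference did not pass (-0.19 ± 0.27, edgeR adjusted p = 0.838). The glycoprotein PROM1, a surface marker of stem and progenitor cells, had 61.3, 37.00 and 34.1 CPM in M228, against 91.8, 44.8 and 55.2 CPM in GFP (-0.51 ± 0.30, edgeR adjusted p = 0.634). The groups overlapped in both genes. TNFRSF19, a WNT-responsive receptor, stood at 1.15 ± 0.32 (edgeR adjusted p = 0.198), and AQP1, a water channel, at -0.88 ± 0.28 (edgeR adjusted p = 0.305). They had the 2 lowest p-values of the list, and neither passed.

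WNT targets and feedback inhibitors had 18 members tested, 10 of them positive, with a median of 0.093. DKK1, a secreted WNT inhibitor, had 27.9, 54.4 and 38.4 CPM in M228, against 3.95, 16.6 and 20.99 CPM in GFP. No GFP library reached the lowest M228 library, but GFP spread widely and the difference did not pass (1.41 ± 0.44, edgeR adjusted p = 0.276). With the replicate block it did, at 1.51 ± 0.30 (edgeR adjusted p = 0.0244). AXIN2, the standard readout of WNT signalling, had 170.4, 149 and 146 CPM in M228, against 232, 184 and 179 CPM in GFP (-0.35 ± 0.13, edgeR adjusted p = 0.409), lower in every M228 library but not called.

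Enterocyte genes had 27 of 39 members tested, of which 1 rose, none fell and 26 did not pass. The median was 0.31 and 18 were positive. All M228 libraries lay above all GFP libraries in 9 of the 27, beside 5.32% of all genes tested. SI, the brush border sucrase-isomaltase, had 3.91, 1.69 and 2.43 CPM in M228, against 1.22, 0.596 and 0.428 CPM in GFP (2.20 ± 0.49, edgeR adjusted p = 0.0792). DPP4, a brush border peptidase, had 184, 151 and 127 CPM in M228, against 112, 55.9 and 71.2 CPM in GFP (0.97 ± 0.23, edgeR adjusted p = 0.111). With the replicate block SI was called at 2.05 ± 0.32 (edgeR adjusted p = 0.00705) and DPP4 at 0.99 ± 0.13 (edgeR adjusted p = 0.00237), both higher, while MYO1A, a brush border myosin, was called lower at -0.68 ± 0.12 (edgeR adjusted p = 0.0138). KRT20, the keratin of differentiated colon epithelium, had 745, 1101 and 710.0 CPM in M228, against 597, 621 and 703 CPM in GFP. The M228 libraries lay above GFP by a narrow gap and the difference did not pass (0.41 ± 0.17, edgeR adjusted p = 0.484). VIL1, which bundles actin in microvilli, was at -0.05 ± 0.12 and FABP1, a fatty acid binding protein, at 0.81 ± 0.76, neither called, and 44.2% of VIL1's exon sequence overlaps a gene of the opposite strand.

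Goblet, Paneth and enteroendocrine genes had 9 of 23 members tested, none called, with a median of -0.64. All M228 libraries lay below all GFP libraries in 4 of the 9, beside 4.22% of all genes tested. LYZ, the lysozyme of Paneth cells, had 1013, 836 and 636 CPM in M228, against 2429, 1404 and 1615 CPM in GFP. Every M228 library was lower, and the difference missed the threshold without the block (-1.13 ± 0.26, edgeR adjusted p = 0.105) and passed it with the block (-1.12 ± 0.13, edgeR adjusted p = 0.000716). DESeq2 and voom also called LYZ lower, and 34.7% of its exon bases overlap a gene on the opposite strand, which the counts do not separate. AGR2, a disulfide isomerase of secretory cells, had 594, 634 and 559 CPM in M228, against 833, 1322 and 698 CPM in GFP (-0.68 ± 0.20, edgeR adjusted p = 0.239). MUC2, the gel-forming mucin of goblet cells, had 114, 103 and 122 CPM in M228, against 237, 147 and 148.3 CPM in GFP (-0.64 ± 0.35, edgeR adjusted p = 0.604). All M228 libraries of AGR2 and MUC2 lay below GFP, and neither gene was called in either fit.

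Transcription factors of the intestine had 21 members tested with a median of 0.0043 and no call. FOXA1 and FOXA2, related pioneer factors of gut endoderm, differed in sign. FOXA1 had 50.9, 46.9 and 51.5 CPM in M228, against 32.8, 22.4 and 36.2 CPM in GFP (0.71 ± 0.17, edgeR adjusted p = 0.104). FOXA2 had 4.81, 4.80 and 3.79 CPM in M228, against 10.3, 9.28 and 7.59 CPM in GFP (-1.004 ± 0.21, edgeR adjusted p = 0.0689). The libraries did not overlap in either gene, and with the replicate block FOXA1 was called higher (edgeR adjusted p = 0.0158) and FOXA2 lower (edgeR adjusted p = 0.00868). CDX2, the homeobox factor of intestinal identity, had 337, 242 and 242 CPM in M228, against 379.5, 393 and 227 CPM in GFP, with overlapping groups (-0.28 ± 0.24, edgeR adjusted p = 0.731).

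Matrix, adhesion and mesenchymal genes had 21 of 34 members tested, of which NTN4 rose, none fell and 20 did not pass. The median was 0.36, with 18 positive. CALD1, an actin-binding protein of mesenchymal cells, had 2.37, 2.68 and 2.60 CPM in M228, against 1.22, 0.170 and 0.918 CPM in GFP (1.91 ± 0.50, edgeR adjusted p = 0.17). COL3A1, a fibrillar collagen, had 0.641, 1.41 and 1.69 CPM in M228, against 0, 0.170 and 0.306 CPM in GFP (2.46 ± 0.69, edgeR adjusted p = 0.2). COL3A1 was called higher with the replicate block (edgeR adjusted p = 0.0158), and NTN4 was called in both fits. COL3A1 is also one of the 6 fibroblast markers.

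Signalling lists held no call. MAPK output genes had 17 members tested, 14 positive, with a median of 0.26. EGR1, an immediate early transcription factor, had 35.3, 28.5 and 31.9 CPM in M228, against 27.4, 18.7 and 17.3 CPM in GFP (0.64 ± 0.18, edgeR adjusted p = 0.217) and was called with the block (edgeR adjusted p = 0.0155), and SPRY1, a feedback inhibitor, was at 0.42 ± 0.16. NF-kB targets had 16 tested, 4 positive, with a median of -0.30. CCL2, a chemokine at no more than 1.04 CPM in any of the 6 libraries, was at -2.80 ± 0.88, and CXCL1, a chemokine, was at -0.72 ± 0.22 and was called lower with the block (edgeR adjusted p = 0.0244). Notch genes had a median of -0.11 over 13 members, with the ligand DLL1 at -1.19 ± 0.48, the receptor NOTCH3 at 0.42 ± 0.17 and the target HES1 at -0.02 ± 0.17.

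BMP and TGF-beta genes had a median of 0.038 over 17 members, with the ligand BMP7 at 0.51 ± 0.15 and LTBP1, which binds latent TGF-beta, at 0.52 ± 0.18. YAP and TEAD targets had a median of 0.24 over 12, with the kinase LATS2 at 0.63 ± 0.24 and the ligand TGFB2 at -0.69 ± 0.32. Interferon and antigen presentation genes had a median of -0.11 over 20, with the proteasome subunit PSMB8 at -0.57 ± 0.19 and the RNA sensor OAS3 at 0.49 ± 0.22. None of these members passed the test.

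Growth lists had medians close to 0. The 25 genes of DNA replication and mitosis had a median of -0.022 and a range of -0.28 to 0.29. MKI67, a proliferation marker, had 675, 498 and 624 CPM in M228, against 734, 325 and 666 CPM in GFP, with GFP on both sides of M228 (0.06 ± 0.24, edgeR adjusted p = 0.954). MCM3 and MCM2, helicase subunits, were at -0.28 ± 0.12 and 0.29 ± 0.15, and 23.6% of MCM2's exon bases overlap another gene. The 13 cell cycle inhibitors and p53 targets had a median of -0.060, with CDKN1A, the p21 inhibitor, at -0.20 ± 0.39, CDKN2B, the p15 inhibitor, at 0.94 ± 0.43 and GDF15, a stress-induced cytokine, at -0.46 ± 0.25. The 15 apoptosis genes had a median of -0.0048, with the death receptor TNFRSF10B at 0.30 ± 0.12 and the survival factor BCL2 at 0.75 ± 0.32. No member of these lists was called.

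Metabolic and stress lists likewise held no call. Medians were 0.10 over 18 cholesterol and fatty acid synthesis genes, 0.20 over 15 gut and liver enzymes, -0.041 over 19 serine synthesis and ATF4 targets, -0.038 over 17 chaperones and -0.014 over 16 hypoxia genes. FDFT1, the squalene synthase, was at -0.21 ± 0.21. CYP2C18 and UGT1A1, drug-metabolising enzymes, were at 1.15 ± 0.38 and 0.53 ± 0.22, and both share over 20% of their exon bases with other genes on their strand. STC2, a stanniocalcin, was at -0.26 ± 0.12 and ATF4, the transcription factor of the amino acid response, at -0.33 ± 0.18. DNAJB9 and HSPE1, chaperones, were at 0.43 ± 0.18 and -0.31 ± 0.24. CA9, a hypoxia-induced carbonic anhydrase whose exons overlap another gene by 36.1%, was at -0.67 ± 0.22 and EGLN3, a prolyl hydroxylase, at -0.33 ± 0.17. Kallikreins and keratinocyte genes had a median of 0.32 over 9, with the desmoglein DSG3 at 0.78 ± 0.25 and the protease KLK6 at 0.67 ± 0.22.

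All 30 cytosolic ribosomal protein genes had a negative fold change, with a median of -0.32 and no call. RPL10, whose exons overlap other genes by 53.4%, had 375, 409.7 and 411 CPM in M228, against 456, 727 and 447 CPM in GFP (-0.45 ± 0.16, edgeR adjusted p = 0.379) and RPL39 had -0.70 ± 0.30. GFP replicate 2 was the high library in both, the same library that held the largest ribosomal share of reads, and its part in the list's median was not tested. The 13 mitochondrial genome genes had a median of 0.011, with MT-ATP8 at 0.42 ± 0.31 and MT-ND4L at 0.48 ± 0.36.

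**Figure D3:**
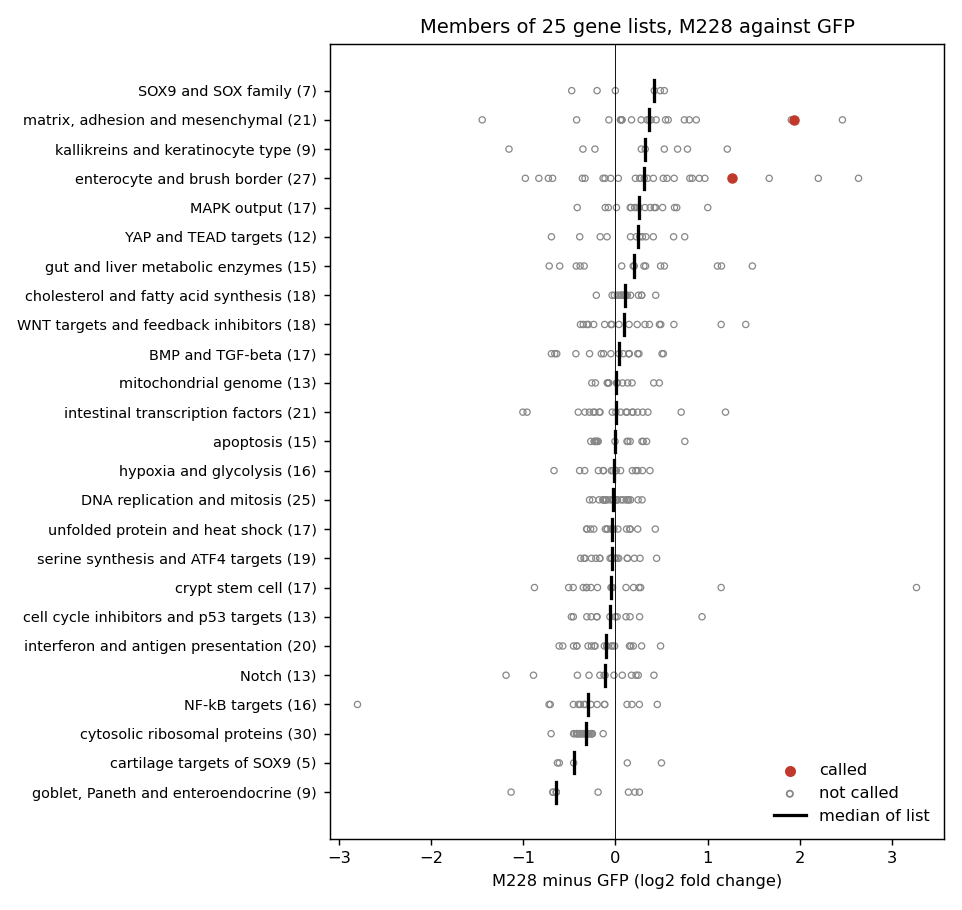
Log2 fold changes (M228 minus GFP) of the tested members of 25 gene lists, with the number tested in parentheses and SOX9 itself left out of the points. Filled red points were called, open grey points were not, and black bars mark the median of each list with SOX9 included, from -0.64 in the goblet, Paneth and enteroendocrine list to 0.42 in the SOX family.

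Of the 142 genes called only with the replicate block, those described here were chosen after their values were seen. HPGD, which breaks down prostaglandins in the gut epithelium, had 167, 125 and 62.7 CPM in M228, against 50.8, 25.2 and 25.8 CPM in GFP. Within each group replicate 1 was the highest, and with the block the difference was 1.78 ± 0.18 (edgeR adjusted p = 0.000386). DUOX2, the hydrogen peroxide-making oxidase of the gut surface, had 100.98, 56.3 and 22.3 CPM in M228, against 16.7, 3.66 and 4.10 CPM in GFP (2.99 ± 0.41, edgeR adjusted p = 0.00269). DUOXA2, its maturation factor, had 9.67, 9.74 and 2.54 CPM in M228, against 0, 0.767 and 0.0612 CPM in GFP (4.18 ± 0.56, edgeR adjusted p = 0.0025). Both spread widely among libraries of 1 group, and DUOXA2 was near the floor in GFP. TSC22D3, a leucine zipper protein induced by glucocorticoids, was lower, with 7.62, 5.93 and 5.48 CPM in M228, against 14.3, 11.8 and 11.9 CPM in GFP (-1.03 ± 0.15, edgeR adjusted p = 0.00348). WNT11, a WNT ligand, was lower too, with 4.49, 3.53 and 4.01 CPM in M228, against 9.12, 8.77 and 6.85 CPM in GFP (-1.04 ± 0.20, edgeR adjusted p = 0.0199).

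Few genes were called between M228 and the other 2 mutants. In a direct test against M303, 2 genes were called (0.0124%), 1 higher and 1 lower in M228 (0.00619% each). Against M379 there were 7 genes (0.0433%), 6 higher in M228 (0.0371%) and 1 lower (0.00619%). With the replicate block these counts were 14 against M303 and 25 against M379. Against SOX9_WT, which holds far fewer SOX9 reads, 92 genes were called (0.569%), 46 each way (0.285%). Each fit without 1 library of M228 or SOX9_WT called 27 to 44 genes there, the fewest without SOX9_WT replicate 2. Against M303 a fit without any 1 of the M228 libraries or without M303 replicate 1 called 1 gene. These comparisons share the M228 libraries with that against GFP, and the effects of the groups over GFP share the GFP libraries, so values are given side by side only.

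COL9A3 (ENSG00000092758, chromosome 20, 62816244 to 62841159, plus strand) was lower in M228 than in M303 and M379, and like SERPINE2 it was chosen after its values were seen. It had 3.14, 3.11 and 3.50 CPM in M228, against 15.1, 21.4 and 22.96 CPM in M303. M379 held 11.6, 16.2 and 21.7 CPM and SOX9_WT 12.7, 5.90 and 5.64 CPM. M228 lay below each of these libraries and just above GFP, at -2.59 ± 0.33 against M303 (edgeR adjusted p = 0.00702) and -2.33 ± 0.33 against M379 (edgeR adjusted p = 0.0133). Both calls were lost without any 1 of the M228 libraries (edgeR adjusted p = 0.0715 to 0.112 against M303 and 0.0970 to 0.115 against M379), and that against M379 also without M379 replicate 2 or M379 replicate 3, while the difference kept its sign and lay between -2.76 and -2.08. Against GFP the same gene changed by 3.09 ± 0.36 in M303 (edgeR adjusted p = 0.00223) and 2.83 ± 0.36 in M379 (edgeR adjusted p = 0.00725).

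NTN4, PKIB, EHD2, ELFN2 and SERPINE2 were higher in M228 than in M379. NTN4 held 12.2, 15.5 and 16.3 CPM in M228, against 3.02, 3.44 and 4.22 CPM in M379 (2.04 ± 0.27, edgeR adjusted p = 0.0101). ELFN2 held 12.6, 12.1 and 10.96 CPM in M228, against 5.84, 2.99 and 4.70 CPM in M379 (1.40 ± 0.23, edgeR adjusted p = 0.0433). The M228 and M379 libraries of both genes lay apart. PKIB differed by 1.23 ± 0.15 (edgeR adjusted p = 0.00645), EHD2 by 1.23 ± 0.18 (edgeR adjusted p = 0.0133) and SERPINE2 by 1.02 ± 0.15 (edgeR adjusted p = 0.0133). Without M379 replicate 3 no gene was called between M228 and M379 by edgeR (413 with an unadjusted p under 0.05), 1 was called without M379 replicate 2 and 4 without M379 replicate 1. Without M228 replicate 1, M228 replicate 2 and M228 replicate 3 there were 4, 2 and 3.

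Other genes had positive fold changes over GFP in the 3 mutants. TLR4 stood at 1.57 ± 0.23 in M228, 1.26 ± 0.23 in M303 and 1.09 ± 0.23 in M379. SPINK5 stood at 1.53 ± 0.26 in M228, 1.89 ± 0.25 in M303 and 1.90 ± 0.26 in M379. LAMA4 stood at 2.97 ± 0.42 in M228, 2.27 ± 0.41 in M303 and 1.55 ± 0.43 in M379. None of these 3 genes was called between M228 and another mutant, which does not show that the proteins act alike.

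**Figure D4:**
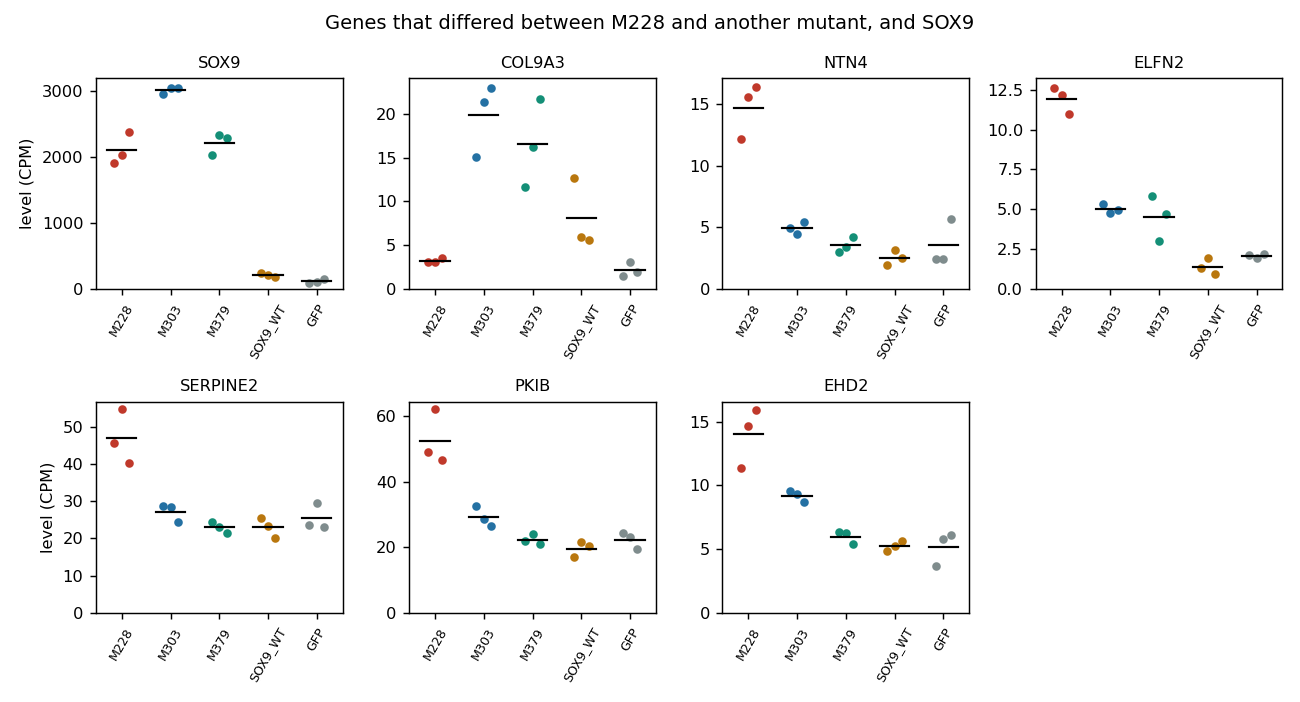
Levels (CPM, vertical axis, from 0) of SOX9 and of 6 genes called between M228 and M303 or M379, in the 3 libraries of each group, with bars at the group means. COL9A3 stood at 3.11 to 3.50 CPM in M228 and 11.6 to 23.0 CPM in M303 and M379.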

How the data were processed

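Poly(A) RNA of HT115 cells was sequenced. The submitters' processing notes name STAR 2.7.0a and hg38. Raw read counts per gene, deposited by the authors, came from featureCounts 2.0.1 run on Ensembl release 101, per the file headers. That command line has no strand and no paired-end option, so strands were not separated and both reads of a pair could be counted. A normalized table was not used, and 3 of its columns match no label. Symbols came from Ensembl identifiers (42020 of 60671 genes).

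Counts were analysed with edgeR 4.0.16 in R 4.3.3 (filterByExpr, TMM, 1 mean per group over all 15 libraries, 10 residual degrees of freedom); a standard error is the fold change over the root of its F statistic. DESeq2 1.42.0, limma 3.58.1 (voom) and other settings served as alternatives. The steps were tested on simulated counts that gave each gene 1 dispersion for all groups. That test did not cover the wider spread of the GFP libraries. No pair of libraries in a group agreed within sampling noise. Equal replicate numbers in M228 and GFP deviated together (correlations 0.394, 0.207 and 0.169), and unlike numbers had -0.297 to 0.106. Deviations were taken from the group means, so values for unlike numbers are not independent of those for equal numbers. Equal numbers of M228 with M303 or M379 also deviated together. M228 replicate 3 with M303 replicate 2 had 0.255, above the 0.194 of replicate 2 in both groups. The labels do not say what a number marks, and for SOX9_WT 1 equal pair fell to 0.0641.

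Named genes are SOX9, symbol-bearing calls whose log2 CPM averaged 1 or more and whose libraries did not overlap (14 highest and 14 lowest folds), up to 4 called or the 2 lowest-p members of each list, and 10 gut genes. The comparison and lists were chosen with earlier results of these data known. Some called genes are not reported here.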

Additional observations from a re-analysis of the deposited data

Results flagged for a closer look

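Genes whose response differed between M228 and another SOX9 mutant in a direct edgeR test (adjusted p under 0.05) are given as log2 fold changes. COL9A3 differed by -2.59 from M303 and by -2.33 from M379. Higher in M228 than in M379 were NTN4 (2.04), ELFN2 (1.40), PKIB (1.23), EHD2 (1.23) and SERPINE2 (1.02). With 3 libraries a group, genes were not screened for outlying values in single libraries. Whole libraries were weighted by voom and left out in turn, as given below.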

How the results depend on the processing

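The count of 39 genes between M228 and GFP (33 higher, 6 lower) was 39 with RLE scaling, 36 with robust dispersion and 52 with voom quality weights (10 lower, 27 shared). It was 163 with DESeq2 (115 higher, 48 lower), 181 with the replicate block (126 and 55), 282 with no filter on low counts (185 and 97), 9 with replicates 2 and 3 alone (7 and 2) and 3 with M228 and GFP alone (3 and 0, with 272 lower at an unadjusted p under 0.05). DESeq2, the block and the unfiltered fit shared all 39. Leaving out 1 library gave 15 to 143. The cause of these shifts was not tested. The numbers of calls against SOX9_WT, M303 and M379 were 227, 11 and 19 with DESeq2, 319, 14 and 25 with the block, and 27 to 44, 1 to 2 and 0 to 4 when 1 library was left out. The block changed no call among the named genes other than those given above.

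Among genes not called, voom turned the sign of MKI67 (-0.24), HES1 (0.19), CDKN1A (0.25), HSPE1 (0.027) and RPL39 (0.034). Leaving out 1 library moved MKI67 over -0.22 to 0.27, HES1 over -0.16 to 0.17, CDKN1A over -0.51 to 0.073, HSPE1 over -0.50 to 0.048, RPL39 over -0.996 to 0.013, LGR5 over -0.55 to 0.22 and VIL1 over -0.11 to 0.017. Depth limits genes near 1 CPM most in GFP replicate 1, where 3 reads are 0.912 CPM, and voom gave GFP replicate 2 a weight of 0.0748.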
